A study of Rattus norvegicus with 4 samples.

Results

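The sodium, calcium and HCN channel genes of the neonatal rat hippocampus were taken as every listed gene with a numeric gene ID whose symbol belongs to the voltage-gated sodium channel family (Scn alpha and beta subunits), the voltage-gated calcium channel subunits (Cacna1, Cacna2d, Cacnb and Cacng), the HCN channels (Hcn), the ryanodine and inositol trisphosphate receptors (Ryr and Itpr) or the TRP channels of the Trpc, Trpm and Trpv groups. The choice used symbols only and no measured value, and it gave 66 of the 13984 genes listed with a gene ID. Of these, 49 reached a mean of 1 FPKM over the 4 libraries and entered the tests, and 17 did not. FPKM counts sequenced fragments relative to the length of the gene and to the depth of the library, so it can be compared between genes of different length. Among the members by symbol, Trpc4ap encodes a protein that associates with TRPC4 and is not itself a channel.

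The libraries came from whole hippocampi of 1-day-old Wistar rat pups (PND1). Their dams were given BPA (bisphenol A, a building block of polycarbonate plastics that can bind estrogen receptors) at 5000 µg/kg of maternal body weight each day from gestation day 1 to birth, or the vehicle alone, and the sample records give the dams' age as 10 weeks. There was 1 library per sex and treatment, named here male control and male BPA, and female control and female BPA, and each library held the RNA of 3 pooled hippocampi. No group has a replicate library, so a difference within a sex compares 2 libraries, and in the tests of BPA against control the sexes stand as the replicates of a treatment. The p-values therefore measure the spread between 4 pools and not between pups or litters.

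The low values of each library step in whole fragments, and from these steps the depth was estimated at 8660000 to 8920000 fragments per library. The listed markers of hippocampal excitatory neurons, 10 of 10, were above 1 FPKM in mean, with a summed level of 411 to 448 FPKM in the 4 libraries, and the summed level of 6 general neuronal markers was 2475 to 2766 FPKM. Markers of tissue next to the hippocampus differed far more between libraries. The 8 choroid plexus markers summed to 268 FPKM in control males and 710 in BPA males, but to 10.7 in control females and 49.5 in BPA females. These sums were mostly Ttr (transthyretin), except in control females, where Ttr was at 3.96 FPKM. The other 7 markers summed to 11.7, 20.7, 6.71 and 7.12 FPKM in the same order of libraries as the sums. Of these 7, 4 were lower in female BPA than in female control. The 7 markers of the meninges summed to 320 FPKM in female control against 63.4 to 78.8 in the other libraries. In whole tissue, fewer cells of a type and less RNA per cell cannot be told apart.

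Voltage-gated sodium channels open when a neuron depolarizes and carry the rising phase of the action potential. Voltage-gated calcium channels turn the same depolarization into calcium entry, which releases transmitter at the terminal and drives calcium signals in dendrites and the soma. HCN channels open on hyperpolarization and carry a depolarizing cation current that sets the resting potential and rhythmic firing of hippocampal pyramidal cells. Ryanodine and inositol trisphosphate receptors release calcium from the endoplasmic reticulum, and TRP channels are mostly calcium-permeable cation channels that respond to lipids, calcium, heat or cell stretch.

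Upstream sequence was available for 49 of the 66 members in the RefSeq table (build GRCr8), a number equal by coincidence to that of the members tested. The sequences of Scn2b, Cacng8 and Hcn2 are shown because they had the lowest value in the comparison of BPA with control (Scn2b) and the lowest values in that of the sexes (Cacng8 and Hcn2). Each is the 250 bases before the transcription start, written 5′ to 3′ on the strand of the gene: Scn2b at chr8:54322133-54322382 (plus strand), Cacng8 at chr1:74691004-74691253 (minus strand) and Hcn2 at chr7:10639458-10639707 (minus strand). Capitals mark the Sp1 box GGGCGG and the core hexamer of the estrogen response element, AGGTCA, each searched on both strands.
Scn2b: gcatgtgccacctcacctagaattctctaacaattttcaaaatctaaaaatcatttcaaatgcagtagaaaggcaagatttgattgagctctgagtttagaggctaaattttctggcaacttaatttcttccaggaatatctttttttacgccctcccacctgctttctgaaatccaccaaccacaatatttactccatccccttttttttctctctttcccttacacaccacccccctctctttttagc
Cacng8: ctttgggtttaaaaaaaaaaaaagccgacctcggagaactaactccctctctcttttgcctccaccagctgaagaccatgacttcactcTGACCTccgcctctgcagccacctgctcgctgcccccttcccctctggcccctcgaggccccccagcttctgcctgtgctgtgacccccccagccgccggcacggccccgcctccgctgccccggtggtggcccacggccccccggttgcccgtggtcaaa
Hcn2: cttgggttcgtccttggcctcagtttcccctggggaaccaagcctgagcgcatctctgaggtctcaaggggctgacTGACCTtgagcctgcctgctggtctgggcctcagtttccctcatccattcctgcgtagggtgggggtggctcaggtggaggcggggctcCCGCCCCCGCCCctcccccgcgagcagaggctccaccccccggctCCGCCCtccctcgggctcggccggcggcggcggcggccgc
The Scn2b sequence held neither motif and had a GC content of 38.8%. A single estrogen response element core was found before Cacng8, whose GC content was 64.8%. Before Hcn2 there were 3 Sp1 boxes, of which 2 lie beside each other, and 1 estrogen response element core, with a GC content of 71.6%. Over the 49 members with a sequence the median GC content was 60.0%, against 52.0% over the 27456 upstream sequences of the table. The Sp1 box was in 44.9% of the members' sequences and in 32.4% of all, the estrogen response element core in 14.3% and 13.7%, the TATAAA box in 6.1% and 13.1%, and the cAMP response element TGACGTCA in 0% and 1.7% (none of these motifs contains another). A match of letters is a description of the sequence, and no binding was measured here.

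The neonatal hippocampus carried each family, but with a few members dominating. The highest member was Cacnb3 (gene ID 25297), a cytoplasmic beta subunit that brings calcium channels to the membrane, at 102.7 FPKM in control males, 103.1 in BPA males, 89.4 in control females and 85.9 in BPA females. Next came Cacng4, which encodes a transmembrane AMPA receptor regulatory protein (TARP) of the calcium channel gamma family, with 100.1, 84.5, 76.6 and 84.2 FPKM in the same order. Over the 49 members tested the median of the mean level was 11.003 FPKM. It was 13.4 FPKM over the 10857 tested rows with a gene ID, and 10.6 FPKM over all 13542 rows tested.

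**Figure D1:**
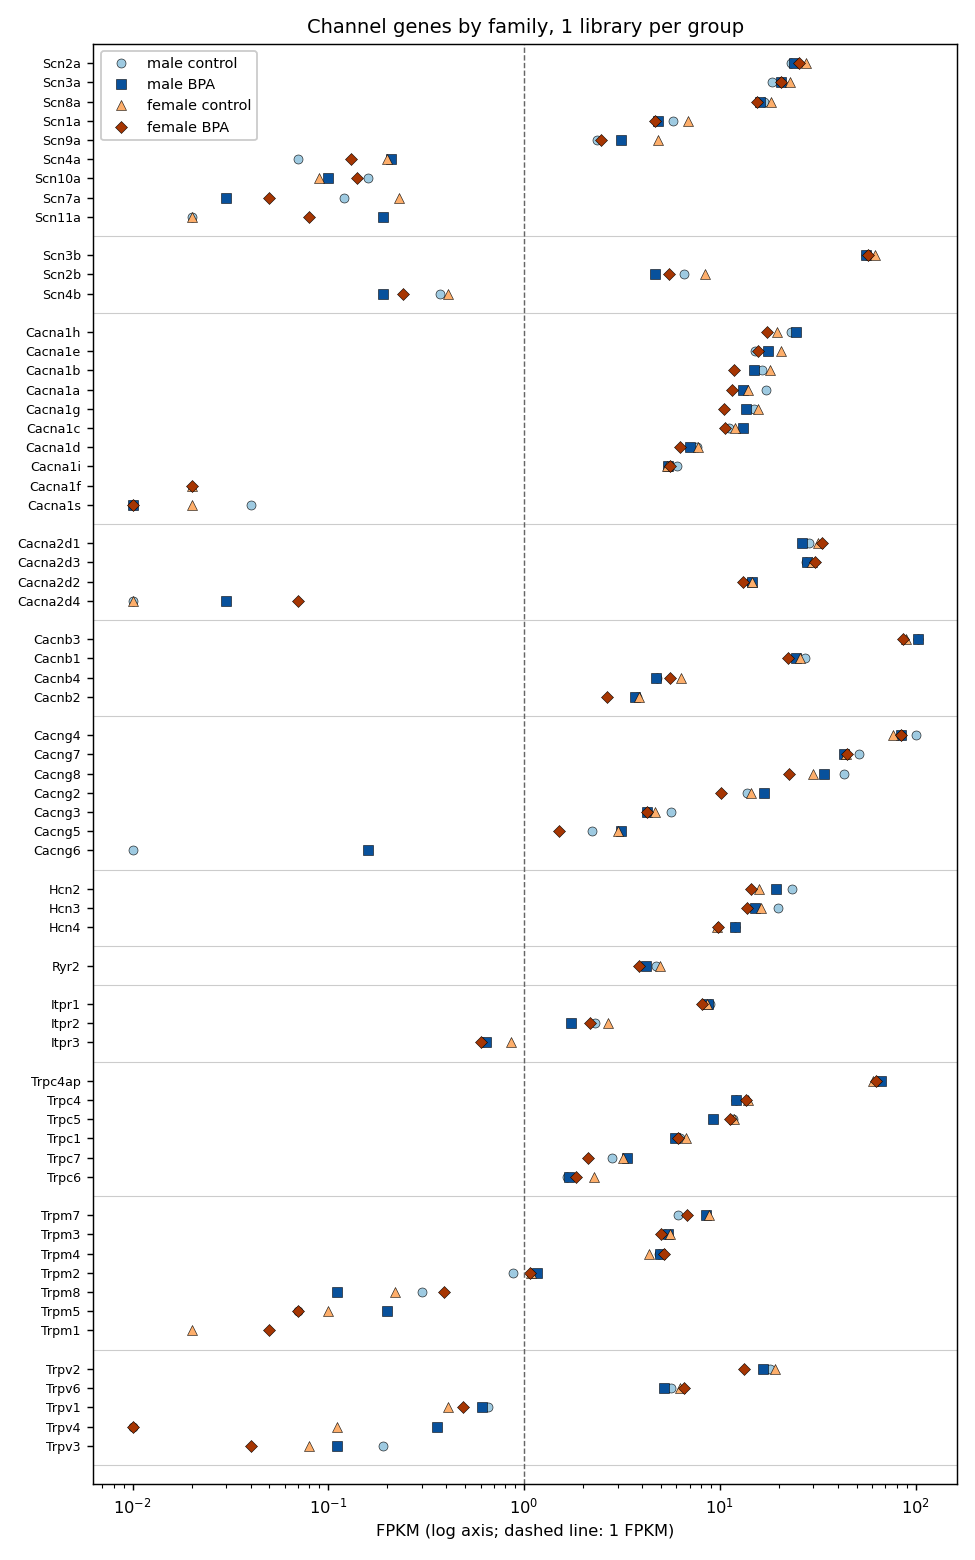
FPKM of 62 members on a log axis, ordered by mean level within each family, with 1 symbol per library (circle for control males, square for BPA males, triangle for control females, diamond for BPA females) and a dashed line at 1 FPKM. The genes shown split into 46 with a mean of at least 1 FPKM, up to 103.1 FPKM for Cacnb3 in male BPA, and 16 that stay below the line in every library, with 0.01 FPKM as the lowest value listed.

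Among the pore-forming sodium channel subunits, Scn2a, Scn3a and Scn8a lay together. Scn2a, the main channel of the early axon initial segment, was at 23.2, 23.8, 27.6 and 25.3 FPKM in the libraries of control males, BPA males, control females and BPA females. Scn3a, a channel of the embryonic and newborn brain, was at 18.5, 20.5, 22.9 and 20.6 FPKM, and Scn8a, which later takes over much of the axon initial segment, at 16.8, 16.0, 18.2 and 15.6 FPKM. The ranges of Scn2a and Scn3a over the 4 libraries did not overlap, and the lowest value of Scn3a (18.5 FPKM) was close to the highest of Scn8a (18.2 FPKM). Scn1a, the main sodium channel of fast-spiking interneurons, was lower at 4.69 to 6.90 FPKM. Of the auxiliary beta subunits, Scn3b was highest, at 55.7, 55.7, 61.8 and 57.3 FPKM in the 4 libraries.

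The calcium channel pores were more evenly spread, with 8 of 10 above the filter and 6 of them above 10 FPKM in every library. Cacna1h (T-type) led the family by its mean level, at 23.2, 24.5, 19.6 and 17.5 FPKM, followed by Cacna1e (R-type) at 15.1, 17.7, 20.5 and 15.7 FPKM. Cacna1c and Cacna1d, the L-type channels of neurons, were at 10.6 to 13.1 and 6.29 to 7.74 FPKM. Cacna2d1, an α2δ subunit that raises channel density at the membrane and binds gabapentin, was at 28.4, 26.2, 31.6 and 33.3 FPKM. The related Cacna2d3 overlapped it at 27.4 to 30.8 FPKM. Of the HCN genes, Hcn2 was above Hcn3 and Hcn4 in male control, male BPA and female BPA, while in female control Hcn3 (16.2 FPKM) was above it (15.8 FPKM).

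In the calcium stores, Itpr1, the inositol trisphosphate receptor of central neurons, was at 8.11 to 8.87 FPKM and Ryr2, a ryanodine receptor of heart and brain, at 3.86 to 4.97 FPKM. Ryr3 was not listed under a gene ID, but 5 new gene models in the files, 27664 bases in all, matched its protein. Pooled as a mean weighted by their length, they were at 2.47, 2.28, 2.95 and 2.17 FPKM in control males, BPA males, control females and BPA females. The models of Ryr3 did not keep one ratio between libraries. A model of 9116 bases was at 1.23, 3.35, 6.04 and 3.66 FPKM and another of 9105 bases at 4.18, 1.79, 0.85 and 1.30 FPKM. Ryr1, the skeletal muscle form, was not listed under a gene ID. Of the Trpc group, Trpc4ap was at 60.9 to 66.6 FPKM and the channel genes Trpc4 and Trpc5 at 12.1 to 13.98 and 9.23 to 11.8 FPKM. Trpv2 led its group at 18.1, 16.7, 19.1 and 13.3 FPKM, and Trpm7, a channel fused to a kinase that carries magnesium and calcium, led the Trpm group at 6.13, 8.51, 8.76 and 6.80 FPKM.

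The comparison of BPA with control over both sexes asked which of these genes differed with prenatal exposure in the same way in males and females. No member passed a limma adjusted p of 0.05 (0 of 49), and none of all 13542 rows did either (0.0%). At an unadjusted p under 0.05 there was 1 member, Scn2b, where 4.7% of all rows had such a p and 3.11% were also lower with BPA, and with sex as a covariate there were 7 members (14.3%), all lower, where 5.38% of all rows were lower at such a p in that fit. The members were slightly lower with BPA as a list, with a median log2 fold change of -0.09, against -0.02 over all rows tested. In males alone the medians were -0.06 for the members and -0.002 for all rows, with 30 of 49 members lower with BPA (50.4% of all rows). In females alone the medians were -0.16 and -0.04, with 39 of 49 members lower with BPA (56.5% of all rows). Leaving out each library in turn kept the members' median between -0.13 and -0.08.

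A larger part of the list kept its groups apart. In 18 of 49 members (36.7%) both BPA libraries were below both controls, against 19.9% of all rows, and in 1 of 49, Trpm4, both were above, against 13.8% of all rows. Trpm4, which encodes a channel for monovalent cations opened by intracellular calcium, was separated by little, with 4.93 and 5.17 FPKM in the BPA libraries against 4.91 and 4.34 in the controls. The 18 included 4 of the 8 tested Cacna1 genes (Cacna1a, Cacna1b, Cacna1d and Cacna1g), 2 of the 5 tested sodium channel pores (Scn1a and Scn8a) and the sodium channel beta subunit Scn2b. Others were Cacnb1, Cacnb2, Cacng3, Hcn3, Ryr2, Itpr2, Trpc1, Trpc5 and Trpv2. With 1 library left out, groups of 2 against 1 separate more readily, and the count became 28 without male control (38.6% of all rows), 29 without male BPA (39.7%), 25 without female control (36.4%) and 24 without female BPA (33.3%).

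**Figure D2:**
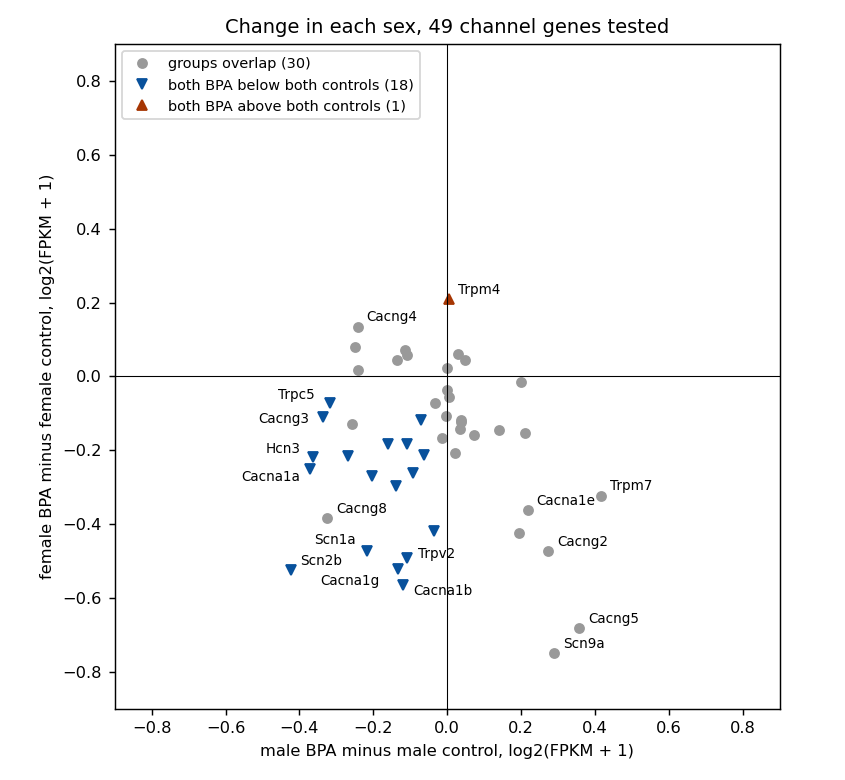
Difference of log2(FPKM + 1) between BPA and control in males (horizontal axis) and in females (vertical axis) for the 49 members tested, 1 library against 1 in each sex. Blue triangles mark the 18 genes with both BPA libraries below both controls, the red triangle marks Trpm4 and grey points mark the 30 genes whose groups overlap. Most points lie below the horizontal zero line, and Scn9a, Cacng5, Cacng2, Cacna1e and Trpm7 form the lower right group of genes higher in male BPA and lower in female BPA.

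Scn2b (gene ID 25349), a beta subunit that links sodium channels to adhesion proteins and regulates their number at the membrane, was at 6.59 and 8.37 FPKM in control males and females, and at 4.66 and 5.51 in BPA males and females. Both BPA libraries lay below both controls. The log2 fold change was -0.47 ± 0.17 (SE, 2 against 2 libraries), with an adjusted p of 0.973 in limma that ranged from 0.478 to 1.0 over the alternatives. Scn2b has a short gene model of 873 bases, and these levels rest on an estimated 47 and 59 fragments in the controls and 33 and 39 with BPA. The interval of the log2 ratio from counting alone, at 95%, was -1.19 to 0.17 in males and -1.23 to 0.00 in females, so the difference within each sex was at the limit of this depth.

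Scn1a (gene ID 81574) had 5.78 and 6.90 FPKM in control males and females against 4.83 and 4.69 in BPA males and females. Its log2 fold change was -0.35 ± 0.16 (SE), with an adjusted p of 0.973 in limma. The groups did not overlap, and the difference did not pass the test. Scn2a, Scn3a and Scn3b, the most abundant genes of the 2 sodium channel families, had log2 fold changes of -0.04, -0.003 and -0.06, and their groups overlapped. Scn8a was at 16.8 and 18.2 FPKM in the controls and at 16.0 and 15.6 with BPA.

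The channels of transmitter release were among the calcium channel genes with separated groups. Cacna1a (gene ID 25398), the P/Q-type pore, was at 17.2 and 13.96 FPKM in the controls against 13.1 and 11.6 with BPA, males first, with a log2 fold change of -0.31 ± 0.15 (SE). Cacna1b (gene ID 257648), the N-type pore, was at 16.3 and 18.0 FPKM in the controls against 14.95 and 11.9 with BPA, with a log2 fold change of -0.34 ± 0.15 (SE). The adjusted p in limma was 0.973 for each. Without male control the value of Cacna1a was -0.17, and without female BPA that of Cacna1b was -0.19. The 2 genes had their larger difference in different sexes, since Cacna1a differed by -0.37 in males and -0.25 in females and Cacna1b by -0.12 and -0.56. Whether the sexes differed in this was not tested.

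Cacna1g (gene ID 29717), a T-type pore that opens near the resting potential, was at 15.01 and 15.6 FPKM in the controls and at 13.6 and 10.6 in male and female BPA, with a log2 fold change of -0.33 ± 0.15 (SE) that was -0.16 without female BPA and -0.495 without male BPA. Cacna1d stood at 7.60 and 7.74 FPKM in the controls and 7.07 and 6.29 with BPA. The other T-type and L-type pores did not keep their groups apart. Cacna1h had a log2 fold change of -0.04, Cacna1i of -0.05 and Cacna1c of 0.03. With 1 library left out each could turn sign, ranging from -0.27 to 0.19, -0.12 to 0.03 and -0.11 to 0.17 in that order. Of the beta subunits, Cacnb1 was at 27.3 and 25.5 FPKM in the controls and at 24.4 and 22.4 with BPA, while Cacnb3 differed by -0.03 on the log2 scale and Cacnb4 by -0.09. All 3 tested α2δ genes had overlapping groups, and Cacna2d3, among the 5 highest values of the list, reached a log2 fold change of 0.05.

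**Figure D3:**
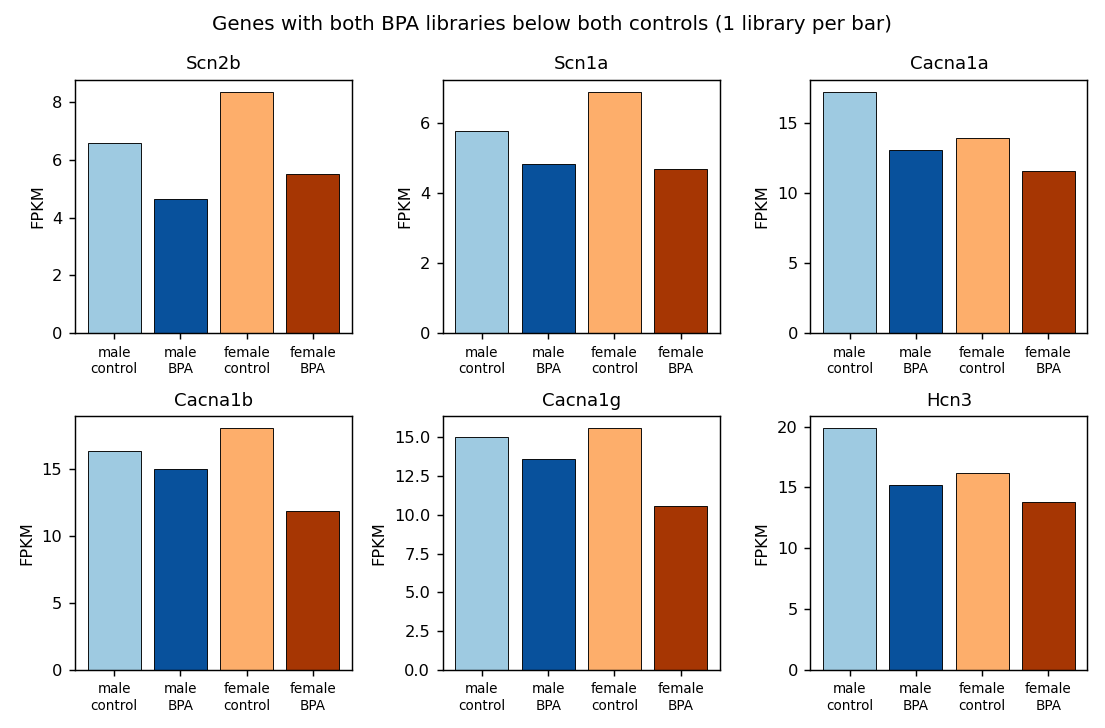
FPKM of Scn2b, Scn1a, Cacna1a, Cacna1b, Cacna1g and Hcn3 in control and BPA males and control and BPA females, with 1 bar per library and an axis from 0 in each panel. Every BPA bar is lower than both control bars of its panel, and in FPKM the gap is narrowest in Cacna1a, where male BPA (13.1 FPKM) and female control (13.96 FPKM) lie close.

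Cacng8 (gene ID 140729), a TARP of hippocampal AMPA receptors, had the second lowest change of the list but its groups overlapped. Its level was 42.98 FPKM in control and 34.1 FPKM in BPA males, and 29.8 FPKM in control and 22.6 FPKM in BPA females. It was lower with BPA in each sex, by -0.33 and -0.38 on the log2 scale, and the level in female control was below that in male BPA. The combined log2 fold change was -0.35 ± 0.23 (SE), with an adjusted p of 0.973 in limma. It was -0.10 without male control and -0.07 without female BPA, but -0.64 without male BPA and -0.61 without female control. Among the other TARP genes, Cacng4 and Cacng7 were lower in male BPA, by -0.24 each, and differed by 0.13 and 0.02 in females.

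The HCN genes differed from one another in this comparison. Hcn3 (gene ID 114245) was at 19.8 and 16.2 FPKM in the controls and at 15.2 and 13.8 in male and female BPA, with separated groups and a log2 fold change of -0.29 ± 0.14 (SE, limma adjusted p = 0.973), which was -0.15 without male control. Hcn2 differed by -0.26 and -0.13, and Hcn4 by 0.00 and 0.02.

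Among the store receptors Ryr2 and Itpr2 had separated groups. Ryr2 was at 4.73 and 4.97 FPKM in the controls and at 4.21 and 3.86 in male and female BPA, with a log2 fold change of -0.22 ± 0.16 (SE). Itpr2, a receptor more typical of glia, was at 2.30 and 2.69 FPKM in the controls and at 1.74 and 2.18 with BPA, with a log2 fold change of -0.24 ± 0.22 (SE) that was -0.13 without male BPA and -0.16 without female control. Itpr1 differed by -0.05. Of the TRP genes, Trpv2 was at 18.1 and 19.1 FPKM in the controls against 16.7 and 13.3 with BPA, and Trpc5, a neuronal channel of growth cones, at 11.7 and 11.8 FPKM against 9.23 and 11.2. None of these differences passed the test. The highest changes of the whole list were small, at 0.11 for Trpm4, 0.09 for Trpm2 and 0.05 each for Trpc4ap, Trpm7 and Cacna2d3.

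Within a sex, an absolute change of at least 0.5 on the log2(FPKM + 1) scale was used to describe large differences between 2 libraries, with no test. In males 0 of 49 members passed it, against 7.2% of all rows and 3.4% of rows with a gene ID, and in females 5 of 49 (10.2%) did, against 9.96% and 6.1%. All 5 were lower in female BPA (Scn9a -0.75, Cacng5 -0.68, Cacna1b -0.56, Scn2b -0.53 and Cacna1g -0.52), where changes of -0.5 or lower made up 6.79% of all rows and 4.93% of those with a gene ID. The counting interval of Cacna1b in females, as a log2 ratio without pseudocount, was -0.72 to -0.49 at 95%, and that of Scn9a -1.27 to -0.66. Cacng5 rested on an estimated 20 and 10 fragments in female control and female BPA, and its interval of -2.27 to 0.15 included 0. With a pseudocount of 0.1 in place of 1 FPKM the female count was 10 (20.4%, against 14.9% of all rows), and with the trend over gene length removed it was 3 (6.12%, against 9.14%).

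The meninges markers moved along with the female comparison, since 7 of 7 were lower in female BPA than in female control, with a sum of 63.4 against 320 FPKM. Vessel and pericyte markers were lower in 8 of 8, with sums of 112 and 147 FPKM. Their part in the female differences was not tested. For the count of 18 separated genes, the astrocyte and radial glia markers had 7 of 8 genes with both BPA libraries below both controls. Their sums were 1425 and 1418 FPKM in the controls and 1268 and 1295 with BPA. Such genes were 4 of 8 vessel and pericyte, 3 of 5 cycling cell, 4 of 10 interneuron and 3 of 10 excitatory neuron markers. They were 1 of 7 oligodendrocyte, 1 of 6 microglia and 0 of 6 tested choroid plexus markers, against 19.9% of all rows. The part of these cells in the count was not tested either. The 6 general neuronal markers had 1 gene below and 1 above, with sums of 2601 and 2475 FPKM in the controls and 2643 and 2766 with BPA. Most of these sums was Tubb3 and Stmn2, which were higher with BPA in each sex. Snap25 and Syt1 were lower with BPA in each sex. Gene length also moved with the changes. Genes with an ID and over 8000 bases long had median changes of 0.08 in males and -0.12 in females, against -0.03 and -0.01 for those up to 2000 bases. The tested members had a median length of 4796 bases, against 2551 for all tested genes with an ID. The 14 members over 8000 bases had medians of -0.08 in males and -0.21 in females. The 6 members up to 2000 bases had lower medians, at -0.22 and -0.37. With the trend over length removed, the count of members with both BPA libraries below both controls was 16. The share of all rows under that setting is not given, and the part of length in the count was not tested.

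The comparison of females with males, over both treatments, had its 5 lowest values among the members in Cacng8, Hcn2, Cacna1h, Cacng2 and Hcn4. No member passed limma's adjusted p of 0.05 (0 of 49), where 1 row of all did (0.00738%). Unadjusted, 6 of 49 members (12.2%) had a p under 0.05, against 10.6% of all rows, and 5 (10.2%) were also lower in females, against 6.76% of all rows. In 9 members both female libraries were below both males (18.4%, against 22.5% of all rows), and in 9 both were above (18.4%, against 19.8%). The members' median log2 difference, female minus male, was -0.06 (all rows -0.005), and it turned to 0.05 without female BPA. Without female control, 28 members had female BPA below both males (42.2% of all rows), and without female BPA, 25 had female control above both males (39.4%).

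Hcn2 (gene ID 114244), a fast HCN subunit of many central neurons, was at 23.3 and 19.3 FPKM in the male libraries and at 15.8 and 14.4 in the female ones. The female libraries both lay below the male ones, with a log2 difference of -0.47 ± 0.12 (SE) and an adjusted p of 0.308 in limma. Hcn4, the subunit best known from the cardiac pacemaker, was at 12.01 FPKM in both male libraries and at 9.62 and 9.78 in the females, with a log2 difference of -0.28 ± 0.12 (SE, limma adjusted p = 0.459). Hcn3 was at 19.8 and 15.2 FPKM in the males and at 16.2 and 13.8 in the females, and its groups overlapped.

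Cacng8 had the lowest sex difference of the list. Its 42.98 and 34.1 FPKM in males against 29.8 and 22.6 in females gave a log2 difference of -0.54 ± 0.16 (SE) and an adjusted p of 0.359 in limma. With treatment as a covariate, which leaves 1 residual degree of freedom per gene, the adjusted p in limma became 0.04996, 1 of 55 rows called in that fit, and over all alternatives it ranged from 0.04996 to 0.956. The difference itself was -0.35 without female BPA and -0.735 without female control. Cacng2 (stargazin), the TARP best known from the cerebellum, was among the 5 lowest values at -0.31, but its groups overlapped, and the value was -0.07 without female BPA and -0.55 without female control.

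Cacna1h was at 23.2 and 24.5 FPKM in males and 19.6 and 17.5 in females, a log2 difference of -0.35 ± 0.10 (SE, limma adjusted p = 0.359). Cacnb3, the highest member, differed by -0.23 ± 0.07 (SE, limma adjusted p = 0.359). In the other direction, Cacna2d1 was at 28.4 and 26.2 FPKM in males and 31.6 and 33.3 in females, a log2 difference of 0.24 ± 0.09 (SE, limma adjusted p = 0.429). The remaining 4 highest values were 0.28 for Scn9a, 0.27 for Cacnb4, 0.25 for Scn2b and 0.20 for Trpv6, of which Cacnb4 and Trpv6 had both females above both males. Choroid plexus markers differed between the sexes in the same libraries, with sums of 268 and 710 FPKM in males and 10.7 and 49.5 in females, and 4 of the 6 tested had both females below both males. Of 7 meninges markers 4 had both females above both males, with a median difference of 0.76. Of 10 interneuron markers 3 had both females below both males, with sums of 304 and 295 FPKM in males and 275 and 245 in females. The part of these tissues and cells in the sex differences was not tested.

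**Figure D4:**
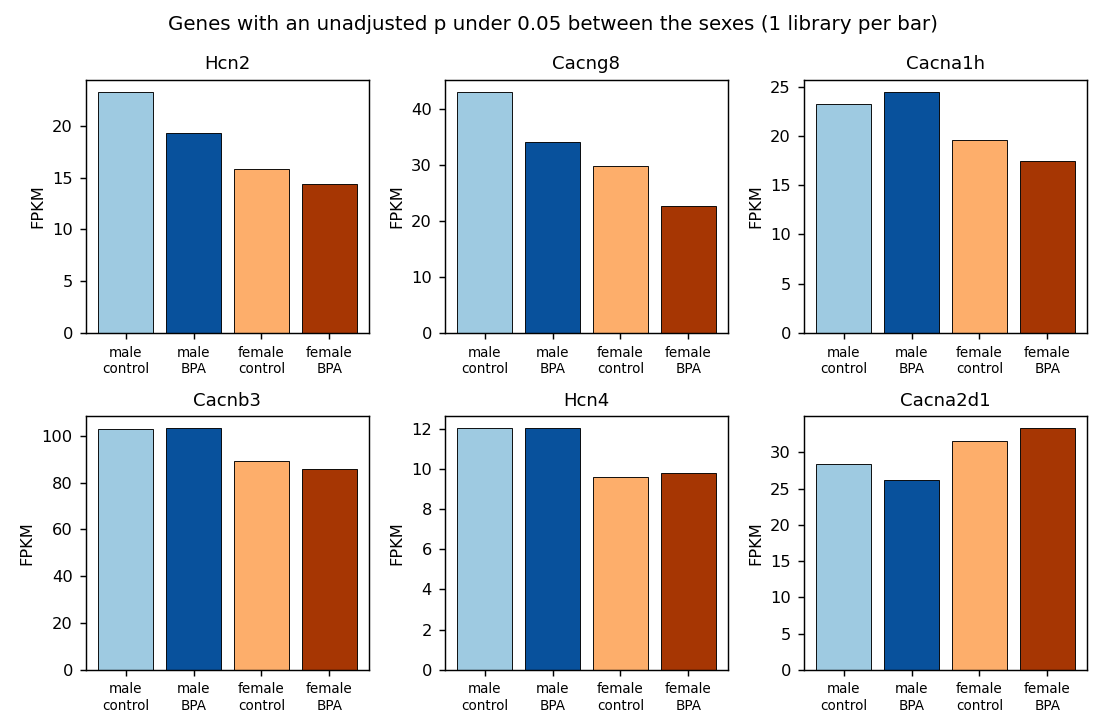
FPKM of the 6 members with an unadjusted limma p under 0.05 between the sexes, Hcn2, Cacng8, Cacna1h, Cacnb3, Hcn4 and Cacna2d1, with 1 bar per library (blue males, orange females, darker bars BPA) and an axis from 0 in each panel. Both female bars are below both male bars in 5 panels and above them in the Cacna2d1 panel.

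Some genes differed from their controls in opposite directions in the sexes. Of the 49 members, 21 (42.9%) had opposite signs in males and females, against 43.2% of all rows, and 15 members (30.6%) were higher in male BPA and lower in female BPA, against 24.6% of all rows. In 5 members each change was at least 0.2 (10.2%, against 6.79% of all rows). Scn9a (gene ID 78956), known for its part in pain-sensing neurons, was at 2.37 and 3.12 FPKM in control and BPA males, and at 4.85 and 2.48 FPKM in control and BPA females. Its female control was the highest of the 4 libraries, and the other 3 lay between 2.37 and 3.12 FPKM. Cacng5 was at 2.23 and 3.14 FPKM in males and 3.01 and 1.5 in females, and Cacng2 at 13.8 and 16.8 against 14.4 and 10.1. Cacna1e stood at 15.1 and 17.7 FPKM in males and 20.5 and 15.7 in females, and Trpm7 at 6.13 and 8.51 against 8.76 and 6.80. The female minus male difference of these changes was not tested, since each rests on 1 library per group.

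**Figure D5:**
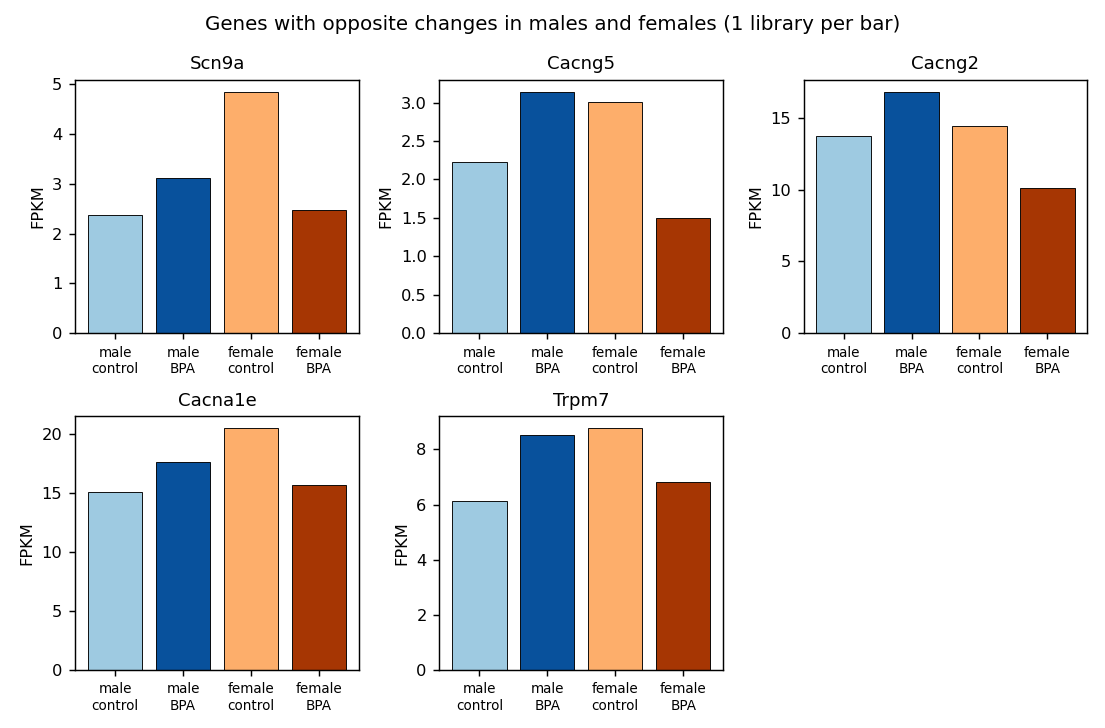
FPKM of Scn9a, Cacng5, Cacng2, Cacna1e and Trpm7 in the 4 libraries, with 1 bar per library and an axis from 0 in each panel. In each panel the male BPA bar is above the male control bar and the female BPA bar is below the female control bar.

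The 17 members under the filter had no library above 1 FPKM, and their highest value was 0.86 FPKM, for Itpr3 in female control. They included sodium channels of muscle and peripheral sensory neurons. Scn10a, a channel of sensory neurons, was at 0.09 to 0.16 FPKM. Scn11a, also of sensory neurons, was at 0.02 FPKM in both controls and at 0.19 and 0.08 in male and female BPA, from an estimated 1 fragment in each control, 10 in BPA males and 4 in BPA females. The counting interval of its log2 ratio was 0.50 to 8.76 in males and -1.36 to 7.60 in females. Among the listed markers of peripheral sensory neurons and Schwann cells, Isl1 stayed at or below 0.23 FPKM, while Prph and Pmp22, the only 2 of the 5 found with a mean of at least 1 FPKM, were at 1.82 to 2.53 and 11.5 to 15.4 FPKM.

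Scn7a and Scn4b were lower with BPA in both sexes at these low levels. Scn7a, a sodium-level sensor rather than a voltage-gated channel, was at 0.12 and 0.23 FPKM in the controls and at 0.03 and 0.05 in male and female BPA, from an estimated 7 and 13 fragments in the controls and 2 and 3 with BPA. The counting interval of its log2 ratio was -5.11 to 0.58 in males and -4.59 to -0.28 in females. Scn4b, the beta subunit linked to resurgent current, was at 0.37 and 0.41 FPKM against 0.19 and 0.24, and both intervals included 0. Trpv4 was estimated at 10 fragments in male BPA (0.36 FPKM), 3 in female control and 0 in the other libraries, where it is listed at 0.01 FPKM. The choroid plexus, a tissue with TRPV4, had its highest marker sum in the same male BPA library, and its part was not tested. Cacna1f and Trpm1 were listed for females only and Cacng6 for males only, all at 0.16 FPKM or below.

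Proteins that bind or feed these channels were taken from a list of 56 genes, of which 53 were found and 50 tested. None passed limma's adjusted p of 0.05 in the comparison of BPA with control. In 14 of 50 (28.0%, against 19.9% of all rows) both BPA libraries were below both controls and in 2 both were above. At an unadjusted p under 0.05, 4 genes were lower and 0 higher, where 3.11% of all rows were lower, and these 4 are named here after their values were seen. Calr, which encodes the calcium-binding chaperone calreticulin, was at 254 and 255 FPKM in male and female control and at 193 and 205 in male and female BPA (log2 fold change -0.35 ± 0.09 SE, limma adjusted p = 0.973). Fgf11, a relative of the intracellular FGFs that bind sodium channels, was at 13.5 and 11.01 FPKM against 8.42 and 7.83 (log2 fold change -0.53 ± 0.15 SE, limma adjusted p = 0.973). Pex5l, which encodes the HCN-binding protein TRIP8b, was at 9.86 and 8.03 FPKM against 7.13 and 5.94, and Flna, which encodes filamin A, at 22.9 and 26.1 against 20.5 and 17.9. All 4 had both BPA libraries below both controls.

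By group, both BPA libraries were below both controls in 2 of 12 tested sodium channel partners, 2 of 15 calcium channel partners, 2 of 3 HCN partners and 8 of 20 genes of calcium stores and clearance. The sodium channel partner Fgf13 was at 135 and 138 FPKM in the controls and 130 and 134 with BPA, and the anchoring gene Ank3 at 42.6 and 45.5 against 44.2 and 39.3.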

How the data were processed

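RNA-seq of 4 pooled hippocampal libraries was used, 1 for each sex and treatment. The values are FPKM as the authors deposited them, rounded to 2 decimals, and none is under 0.01. The submitters' processing notes name HISAT 0.1.6, Bowtie2 2.2.5, RSEM and the rn6 genome, without stating their order. No read counts were used. Gene length is the deposited length of the gene model.

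Rows present in all files with a mean of at least 1 FPKM (13542 rows) were compared on log2(FPKM + 1) with limma 3.58.1 (eBayes with trend) in R 4.3.3, two-sided, with Benjamini-Hochberg adjustment over all rows and a threshold of 0.05. BPA was compared with control as 2 against 2 libraries, and females with males likewise, without covariates, and an exact permutation test of 2 against 2 cannot go below p = 0.333. A fold change on this scale understates the change of low genes. Within a sex, 1 library was set against 1 with no test.

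Depth was estimated from rows of 300 to 1500 bases with a gene ID, as the fragment number at which low values become whole (95.0% to 98.7% within 0.15 of a whole number, with 60 to 80 bases taken off the length). Intervals of a ratio of 2 libraries are exact binomial ones at 95% on estimated fragments and cover counting error only. Named genes were the neuronal channel genes of a written list, the highest member of each family, the 5 highest and 5 lowest differences of each comparison, the 5 largest opposite changes, and selected low members. The members, gene lists and markers were chosen with earlier results of these data known. Upstream sequences came from RefSeq (GRCr8). The limma fit and the depth estimate were tested on simulated data. The remaining steps used scipy 1.17.1, pandas 2.3.3, matplotlib 3.10.9 and numpy 2.4.6 in Python 3.11.15. The alternatives were quantile normalization, other filters, another pseudocount, the crossed factor as a covariate, FPKM of new gene models added to that of their gene and each library left out. Chosen after seeing the data were a fit on rows with a gene ID, removal of the trend over gene length, and the order of the groups under these settings. Some members and markers entered the fits and counts but are not reported here by name.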

Additional observations from a re-analysis of the deposited data

Results flagged for a closer look

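In 5 members the difference between BPA and control had opposite signs in the sexes, with each change at least 0.2 on the log2(FPKM + 1) scale. The female change minus the male change was -1.04 for Scn9a (0.29 in males, -0.75 in females), -1.04 for Cacng5 (0.36 and -0.68), -0.74 for Cacng2 (0.27 and -0.47), -0.74 for Trpm7 (0.42 and -0.32) and -0.58 for Cacna1e (0.22 and -0.36). These differences were not tested, because there is 1 library for each sex and treatment. All 5 had the same sense, higher in male BPA and lower in female BPA. This sense was also the commoner over all rows, at 24.6% against 18.6% for the reverse. Its share among the rows with each change at least 0.2 is not given. With the trend over gene length removed, the changes of Cacna1e were 0.12 in males and -0.25 in females. Those of Trpm7 were 0.37 and -0.24, of Scn9a 0.26 and -0.67, of Cacng5 0.41 and -0.69, and of Cacng2 0.32 and -0.45.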

How the results depend on the processing

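The count of 0 members called for BPA against control, and of 0 partner genes called, was the same under every alternative run. With sex as a covariate 7 members had an unadjusted p under 0.05, all lower, as had 5.38% of all rows. For females against males, 1 member was called with treatment as a covariate (Cacng8, -0.54, limma adjusted p 0.04996) and 0 under the other alternatives. The members' median for that comparison ranged from -0.127 to 0.053 over the fits that each leave out 1 library, the highest without female BPA. The number of members past an absolute change of 0.5 in females (5) was 3 with quantile normalization (9.01% of all rows passed), 3 with a mean of at least 5 FPKM (4.66%), 3 with the trend over length removed (9.14%), 10 with a pseudocount of 0.1 FPKM (14.9%), and 0 at an absolute change of 1 (2.17%). The single member with both BPA libraries above both controls (1 of 49) became 4 of 63 without a filter. It became 0 of 38 with a mean of at least 5 FPKM and 2 of 49 with the trend over length removed. The shares of all rows under these settings are not given. Over the sets that each leave out 1 library, the number with BPA below control ranged from 24 to 29, BPA above control from 4 to 10, females below males from 11 to 28 and females above males from 10 to 25. Some small changes turned sign when 1 library was left out: Cacna2d3 for BPA against control (-0.004 without male control, -0.020 without female BPA), Trpm7 (-0.180 without male control, -0.097 without male BPA), and for females against males Scn2b (-0.010) and Scn9a (-0.099), both without female control. The highest values over these fits were 0.112 for Cacna2d3, 0.273 for Trpm7, 0.516 for Scn2b and 0.651 for Scn9a. Other small changes turned sign too when 1 library was left out. For BPA against control, among them were Cacna1h (-0.274 to 0.190), Cacna1c (-0.110 to 0.168), Cacnb3 (-0.156 to 0.105), Cacnb4 (-0.263 to 0.084) and Scn2a (-0.165 to 0.080). The cause was not tested. Of the 303 values of single genes under alternatives, 6 turned sign, 1 passed the threshold (Cacng8) and 7 kept their sign but were marked as changed in size. The other 289 kept their sign and their side of the threshold. No member passed the threshold in the main fits, so keeping that side says little. Sizes within the 289 varied, as for Cacng8 with BPA against control (-0.641 to -0.068 with 1 library left out) and Cacna1b (-0.498 to -0.186). The labels carry no replicate numbers, and the only pairing the design allows is by the crossed factor, used above as a covariate with 1 residual degree of freedom per gene. The depth limits genes at a few FPKM and short gene models, where few fragments stand behind a value.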
